A study of Gossypium hirsutum with 8 samples.

Results

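Tubulin and actin are the subunits of the plant cytoskeleton. Alpha tubulin and beta tubulin pair into dimers that assemble into microtubules, which in growing plant cells lie under the plasma membrane and guide the laying down of cellulose, and which form the spindle in dividing cells. Actin assembles into filaments that carry organelles and vesicles through the cell, and actin genes are often taken as the reference in measurements of plant transcripts. Described here are 6 genes of upland cotton (Gossypium hirsutum): the alpha tubulins TUA10, TubA2 and ATub3, the beta tubulins BTub3 and BTub4, and the actin ACT1. They were chosen by name: every probe set was taken whose only gene in the platform's probe table carries one of these 6 names in the RefSeq gene table. This gave 8 probe sets of 24029 tested, 5 of alpha tubulin, 2 of beta tubulin and 1 of actin. The 520 genes that the probe table pairs with a probe set of their own include 5 other tubulin and actin genes, used below for comparison.

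The values come from 8 Affymetrix cotton arrays of total RNA from cultivar Sicot 71, grown in a glasshouse to the stage of 2 leaves. The 4 groups hold 2 biological replicates each: whole root after 4 h with the root system under water, whole root of normally watered plants, first leaf after 24 h of such flooding, and first leaf of normally watered plants. The labels give no hour for the control plants, and the time of flooding differed between root and leaf. The question behind the comparison is how transcripts change under waterlogging in root and in leaf. All values are log2 signals as deposited, and an array reads each transcript through a set of short oligonucleotides called a probe set. With 2 arrays a group, a two-sided exact permutation test has a smallest p of 0.333. Every call here therefore comes from the limma model, in which the spread is shared between groups and probe sets.

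The arrays fit their tissue labels as far as a named marker could show. RCA1, which encodes rubisco activase of the chloroplast, read between 14.5 and 14.7 in leaf, while root values ran from 5.22 to 5.89; no name of the root marker list was found. Control root replicate 2 stood apart from the other root arrays. Its correlation with control root replicate 1 across probe sets was 0.953, against 0.984 to 0.994 within the other groups, and its 52 reporter probe sets, which target no cotton gene and serve here as a gauge of unspecific signal, had a 95th percentile of 7.12, against 5.96 to 6.19 on the other root arrays. The reporter level of a group is the same percentile taken over its reporter means. Replicates differed more in control root (root mean square SD over probe sets 0.478) than in flooded root (0.208). The model gives both the same spread, so adjusted p-values that rest on control root may be too small.

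The TUA10 gene (LOC107905189) is read by 3 probe sets, called here TUA10-a, TUA10-b and TUA10-c. TubA2 (LOC107898755), ATub3 (LOC107886968, also listed as TUA6 and TubA1), BTub3 (LOC107925867), BTub4 (LOC107936697) and ACT1 (LOC107911661, also listed as ACT2 and ACT5) have 1 each. All 6 genes lie in the D subgenome of assembly Gossypium_hirsutum_v2.1. Of the 8 probe set names, 5 end in _x_at and 3 in _s_at, the manufacturer's marks for probes that can also match other sequences or that are shared by several transcripts. A signal may therefore include the A subgenome copy or a close paralog, and the gene behind each signal is uncertain. The same gene table names 9 alpha tubulin, 5 beta tubulin and 7 actin genes. ACT1 has as its next 2 annotated genes on one side LOC107911662 (ACT3) and LOC107911663 (ACT10), so that 3 actin genes stand in a row.

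**Figure D1:**
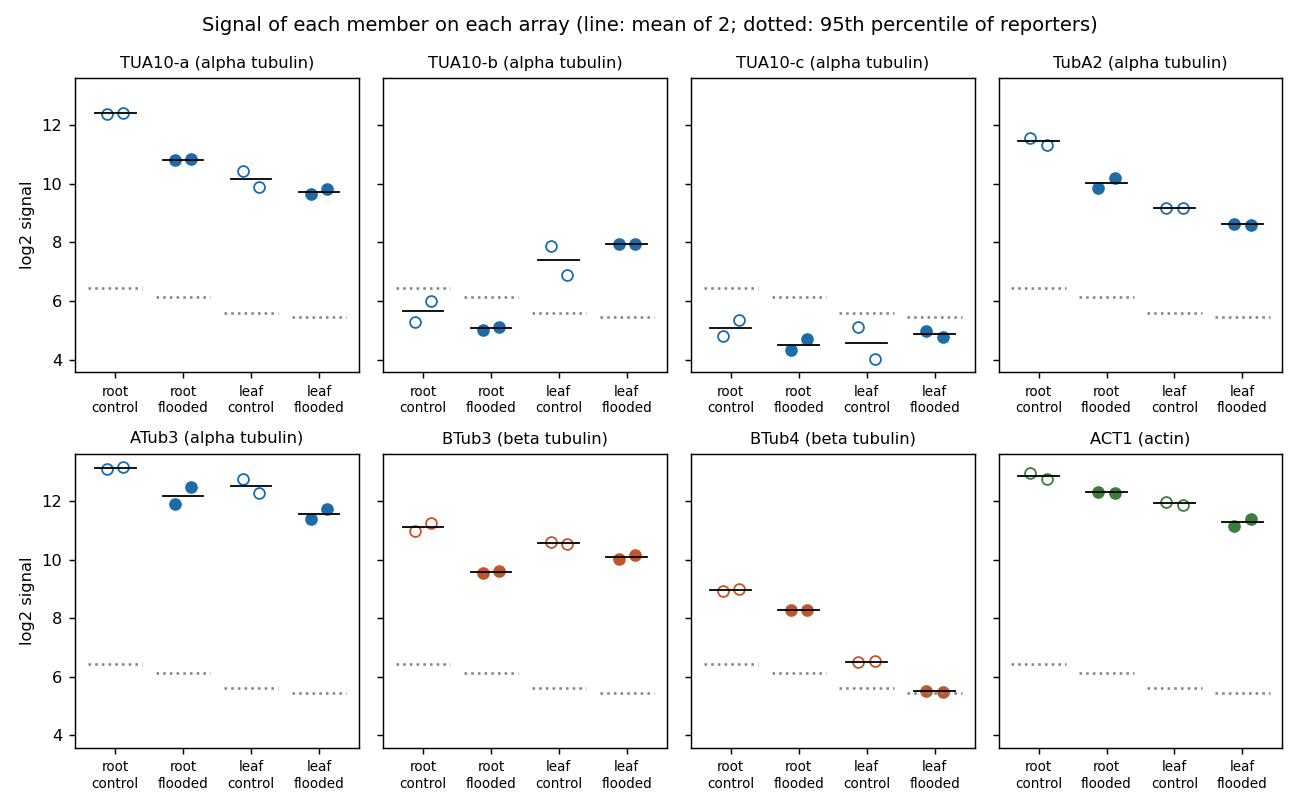
Log2 signal (y axis) of the 8 probe sets on each of the 8 arrays, by group (x axis); open points are control and filled points flooded arrays, black lines the mean of 2 arrays, and dotted lines the reporter level of each group. In root the flooded points lie under the control points in every panel, while TUA10-c lies under the dotted line in all 4 groups.

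After 4 h of flooding, transcripts of 4 tubulin probe sets fell in whole root, 2 of alpha tubulin (TUA10-a and TubA2) and 2 of beta tubulin (BTub3 and BTub4). Of the 8 members 4 fell and 0 rose in limma at an adjusted p under 0.05. Of all probe sets 4.28% fell and 6.4% rose at that limit. At an unadjusted p under 0.05 the member counts were 6 and 0, but the share of all probe sets was not computed there. The median log2 change of the members was -0.81, against -0.02 over all probe sets. The falls are those of RNA from whole tissue, in which fewer cells of a type and less RNA per cell cannot be told apart.

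Among the alpha tubulins, TUA10-a read 12.40 and 12.43 on the control root arrays and 10.80 and 10.85 on the flooded ones. The replicates of each group were nearly equal, and the groups lay far apart (log2 change -1.59, SE 0.21, limma adjusted p = 0.0036), a fall with a 95% interval of 2.12-fold to 4.24-fold. Only 1.93% of tested probe sets had a change as low or lower. The other 2 probe sets of the same gene were dim in root. TUA10-b read 5.28 and 6.02 in control and 5.03 and 5.12 in flooded root, and TUA10-c read 4.80 and 5.36 against 4.34 and 4.70. These lie under the reporter level (6.43 in control and 6.13 in flooded root), and the higher control value of each came from control root replicate 2. Their log2 changes of -0.58 and -0.56 did not pass (limma adjusted p = 0.42 and 0.46).

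TubA2, also an alpha tubulin, read 11.57 and 11.33 in control and 9.84 and 10.20 in flooded root. The groups did not overlap, and the fall was 2.69-fold (95% interval 1.98 to 3.67; limma adjusted p = 0.0035). ATub3 read 13.10 and 13.14 in control and 11.89 and 12.47 in flooded root, a log2 change of -0.94 (95% interval -1.56 to -0.32) that did not pass in limma (adjusted p = 0.067). It passed in 3 of 10 other settings: with a prior variance that follows intensity (adjusted p = 0.04), after quantile normalization over the 8 arrays (adjusted p = 0.03) and after a filter on low values (adjusted p = 0.049). Among those where it did not pass were array weights (limma adjusted p = 0.31) and the root arrays fitted alone (limma adjusted p = 0.16). Without 1 array its log2 change ran from -1.23 to -0.65.

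Of the beta tubulins, BTub3 read 10.96 and 11.25 in control and 9.54 and 9.63 in flooded root. Its fall of 2.87-fold (95% interval 2.15 to 3.83; log2 change -1.52, limma adjusted p = 0.002) was close in size to that of TUA10-a (TUA10-a minus BTub3 -0.07 on the log2 scale). BTub4 read 8.92 and 8.98 in control and 8.28 on both flooded arrays. Its replicates were nearly equal and its fall was smaller, 1.59-fold (95% interval 1.24 to 2.05; limma adjusted p = 0.034). The measured change of BTub3 minus that of BTub4 was -0.85 on the log2 scale, a difference that was not tested. The BTub4 call rested on the shared spread: it was lost when a flooded root array or any leaf array was left out (adjusted p = 0.052 to 0.212, log2 change -0.67), and with the root arrays fitted alone (adjusted p = 0.15). Its adjusted p was under 0.05 in 5 of 10 other settings. These include the 2-fold limit, which its 1.59-fold fall did not reach, so the call was lost there too. It was also lost with the intensity trend (adjusted p = 0.11), array weights (adjusted p = 0.14) and the low-value filter (adjusted p = 0.053). The same held with the replicate number as a block (adjusted p = 0.12).

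The actin ACT1 read 12.96 and 12.76 in control and 12.30 and 12.28 in flooded root. Both flooded arrays lay under both control arrays, but the log2 change of -0.57 (95% interval -0.98 to -0.16) did not pass in limma (adjusted p = 0.09). It passed in 2 of 10 other settings, after quantile normalization over the 8 arrays (-0.82, adjusted p = 0.0185) or within each tissue (-0.68, adjusted p = 0.04). Without 1 array its log2 change ran from -0.67 to -0.47. Both flooded root arrays lay under both control arrays in 8 of 8 members and above them in 0, as they did in 21.4% and 25% of all probe sets.

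**Figure D2:**
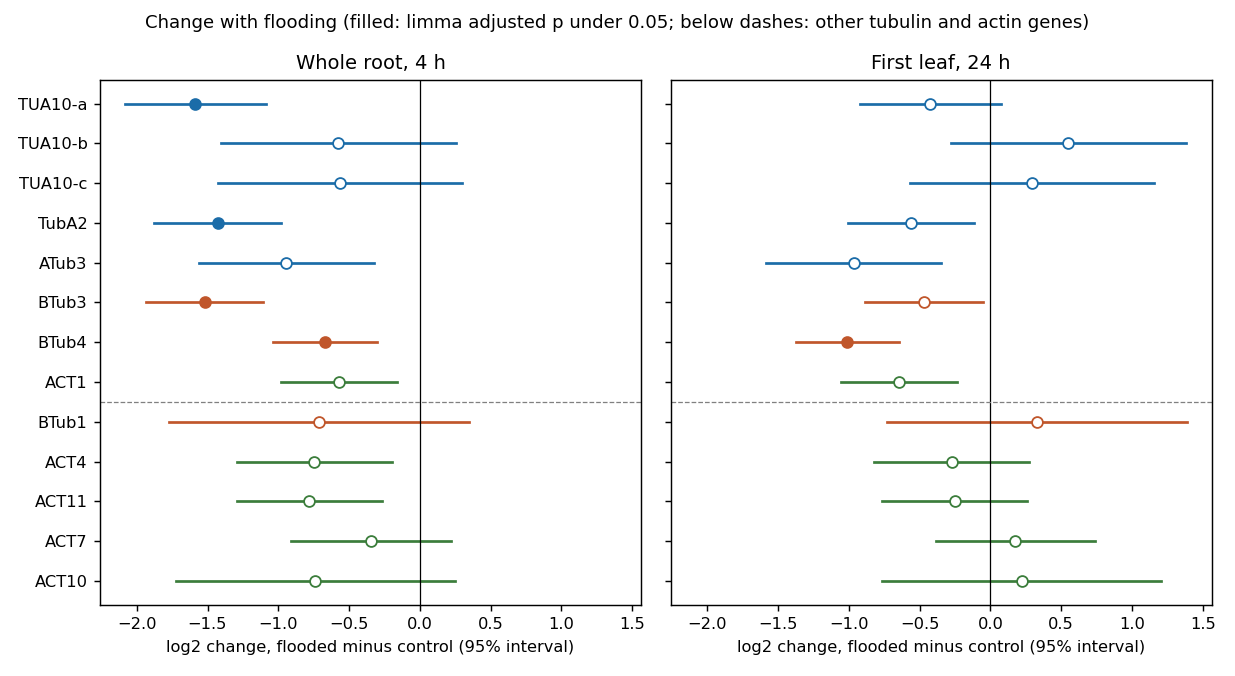
Log2 change, flooded minus control, with its 95% interval from limma (x axis) for the 8 members and, under the dashed line, 5 other tubulin and actin genes, in root at 4 h and leaf at 24 h. Filled points passed at a limma adjusted p under 0.05: TUA10-a, TubA2, BTub3 and BTub4 in root and BTub4 in leaf.

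No test set the subfamilies against each other, and their values are given as a description. In root the 5 alpha tubulin probe sets ranged from -1.59 to -0.56 with a median of -0.94, and the 2 of beta tubulin stood at -1.52 and -0.67. The alpha range is set at its upper end by the dim TUA10-b and TUA10-c. Over the 3 alpha probe sets above the reporter level (TUA10-a, TubA2 and ATub3), the mean change from control was -1.49 and -1.15 on the 2 flooded root arrays. Beta tubulin stood at -1.12 and -1.07, and actin at -0.56 and -0.58, so alpha was lowest and actin highest on both arrays. With the dim TUA10-b and TUA10-c included, alpha stood at -1.16 and -0.87. It was then lower than beta on flooded root replicate 1 and higher than beta on flooded root replicate 2. The restriction to probe sets above the reporter level was added after the data were seen. In leaf TUA10-b was also above it, so the alpha sets of root and leaf differ. These 4 alpha probe sets averaged -0.41 and -0.29 on the 2 flooded leaf arrays, above beta tubulin at -0.77 and -0.72. TUA10-b had a leaf change of 0.55 that did not pass. TUA10-a, TubA2 and ATub3 stood at -0.43, -0.56 and -0.97, against -0.47 and -1.01 for BTub3 and BTub4.

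In the first leaf after 24 h, only BTub4 fell among the 8 members. It read 6.50 and 6.54 in control and 5.53 and 5.49 in flooded leaf, a fall of 2.02-fold (95% interval 1.56 to 2.60; limma adjusted p = 0.017). Of the members 1 fell and 0 rose, where 3.05% of all probe sets fell and 2.21% rose. At an unadjusted p under 0.05, 5 members were lower and 0 higher, but the share of all probe sets was not computed there. The flooded values of BTub4 lay just above the reporter level (5.45). Leaving out a leaf array or a flooded root array, whichever it was, ended the call (adjusted p = 0.055 to 0.166, log2 change -1.03 to -0.99).

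The bright alpha tubulins had negative log2 changes in leaf that did not pass. ATub3 read 12.77 and 12.27 in control and 11.39 and 11.71 in flooded leaf (log2 change -0.97, 95% interval -1.58 to -0.35, limma adjusted p = 0.087). TubA2 read 9.19 and 9.17 in control and 8.64 and 8.60 in flooded leaf, with a change of -0.56 (limma adjusted p = 0.16). TUA10-a read 10.43 and 9.89 against 9.65 and 9.82, with control leaf replicate 2 close to the flooded arrays (-0.43, limma adjusted p = 0.34). In each of these 3 probe sets the control and flooded leaf arrays did not overlap.

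BTub3, the other beta tubulin, read 10.59 and 10.53 in control and 10.02 and 10.15 in flooded leaf (-0.47, limma adjusted p = 0.2). ACT1 read 11.97 and 11.88 in control and 11.16 and 11.39 in flooded leaf (-0.65, 95% interval -1.06 to -0.24, limma adjusted p = 0.084). It passed in 2 of 10 other settings, after quantile normalization within each tissue (-0.75, adjusted p = 0.041) and with array weights (adjusted p = 0.034). Without 1 array its log2 change in leaf ran from -0.76 to -0.53. TUA10-b, which was above the reporter level in leaf, went the other way without passing: 7.89 and 6.89 in control, 7.94 on both flooded arrays (0.55, limma adjusted p = 0.49). Its change was 1.05 without control leaf replicate 1 and 0.052 without control leaf replicate 2. TUA10-c overlapped between the groups, at 5.13 and 4.04 against 4.98 and 4.77, and lay under the reporter level of both. In 6 of 8 members both flooded leaf arrays lay under both control arrays, as in 31% of all probe sets, and in 1 of 8, TUA10-b, above them, as in 25.5%.

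Root at 4 h and leaf at 24 h were compared by the difference of their flooding changes, so tissue and time cannot be told apart. Of the 8 members 1 passed: the change of BTub3 was lower in root than in leaf by 1.05 on the log2 scale (root minus leaf -1.05, 95% interval -1.64 to -0.46, limma adjusted p = 0.046, where 3.47% of all probe sets passed in this direction and 4.79% in the other). This call was kept in 3 of 9 other settings and in 2 of 8 fits without 1 array, and was lost whenever a flooded array or a control leaf array was left out (adjusted p = 0.097 to 0.187). TUA10-a (-1.16, 95% interval -1.87 to -0.46, limma adjusted p = 0.059) and TubA2 (-0.87, -1.50 to -0.24, limma adjusted p = 0.1) did not pass. For ATub3 the difference was 0.025 (95% interval -0.85 to 0.90), for BTub4 0.34 (-0.18 to 0.86) and for ACT1 0.078 (-0.50 to 0.66).

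**Figure D3:**
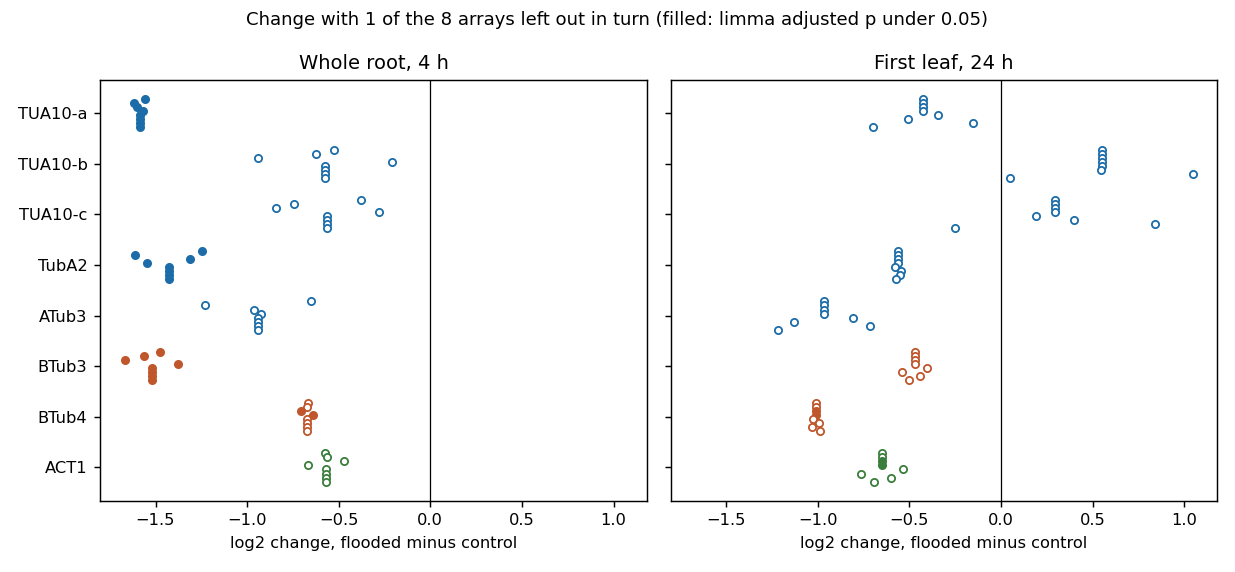
Log2 change, flooded minus control (x axis), of each member with 1 of the 8 arrays left out in turn, each point being a fit without 1 array, in root and leaf; filled points passed at a limma adjusted p under 0.05. In root TUA10-a, TubA2 and BTub3 passed in 8 of 8 fits and BTub4 in 2, and in leaf BTub4 and ACT1 passed in 2 each.

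Tubulin was also set against actin on the same array, by subtracting the ACT1 signal of each array from every other probe set before the fit. Relative to ACT1, TUA10-a fell by 1.02 (95% interval -1.54 to -0.50, limma adjusted p = 0.011), BTub3 by 0.95 (-1.47 to -0.43, limma adjusted p = 0.015) and TubA2 by 0.86 (-1.37 to -0.35, limma adjusted p = 0.021) on the log2 scale in root. Thus 3 of 7 tubulin probe sets were lower relative to ACT1 and 0 higher, where 2.47% of all probe sets were lower and 31% higher; the median over all probe sets was 0.55 on this scale. BTub4 (-0.10, 95% interval -0.60 to 0.39) and ATub3 (-0.37, -0.97 to 0.23) did not pass. All 3 calls were lost without flooded root replicate 1 (adjusted p = 0.09 to 0.176) and without flooded root replicate 2 (adjusted p = 0.0598 to 0.0845). With the root arrays fitted alone only TUA10-a passed (adjusted p = 0.038), and with the mean of 4 actin probe sets in place of ACT1, an alternative added after the data were seen, all 3 passed (log2 changes -0.98, -0.91 and -0.82).

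In leaf 0 of 7 tubulin probe sets were lower relative to ACT1 in limma at an adjusted p under 0.05, where 1.87% of all probe sets were. The tubulin count was also 0 at an unadjusted p under 0.05. TUA10-a stood at 0.22, TubA2 at 0.09, ATub3 at -0.32, BTub3 at 0.18 and BTub4 at -0.36, each with an interval that held 0. These values depend on the actin taken: ACT1 itself stood at -0.65 in leaf, against -0.27 for ACT4, -0.25 for ACT11 and 0.18 for ACT7. With the mean of these 4 actin probe sets, TUA10-a was -0.18, TubA2 -0.31 and BTub3 -0.22. Over the other settings ATub3 reached -0.72 and BTub4 -0.76, and neither passed in any of them. TUA10-b was higher relative to ACT1 (1.20, limma adjusted p = 0.033), as were 34.7% of all probe sets, and this call was lost with the mean of 4 actin probe sets (0.80, adjusted p = 0.25). It was kept in 3 of 8 fits without 1 array, with values from 0.75 (without control leaf replicate 2) to 1.65 (without control leaf replicate 1) and adjusted p up to 0.2.

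**Figure D4:**
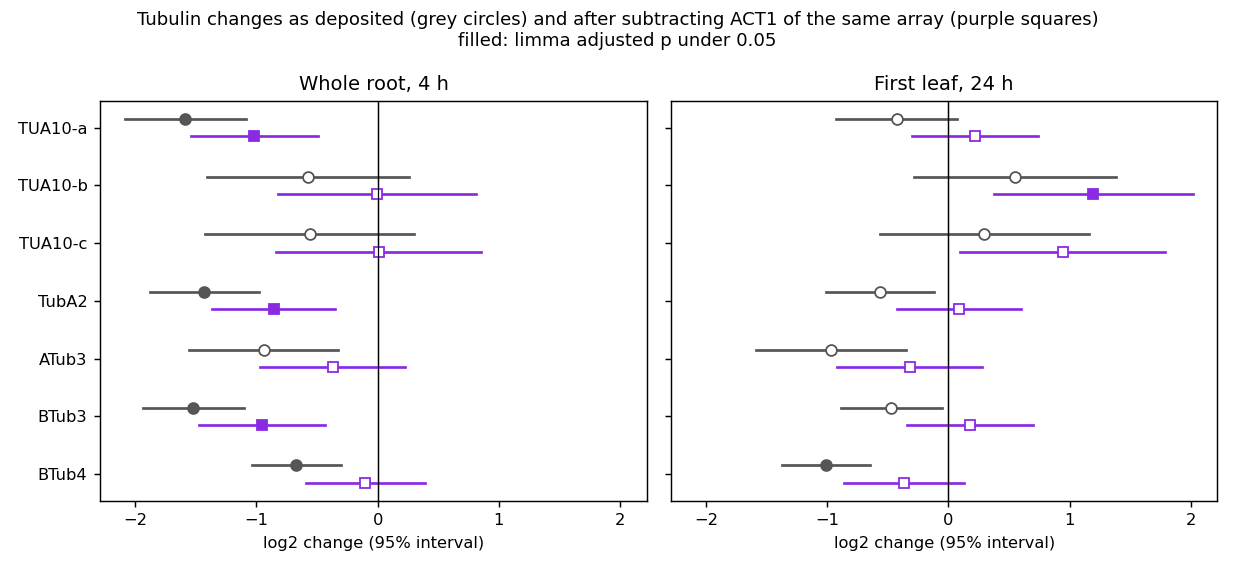
Log2 change of 7 tubulin probe sets with its 95% interval (x axis), as deposited (grey circles) and after the ACT1 signal of the same array was subtracted (purple squares); filled points passed at a limma adjusted p under 0.05. In root TUA10-a, TubA2 and BTub3 stay under 0 after subtraction, and in leaf the intervals of 5 of the 7 squares hold 0.

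In normally watered plants the members also differed between tissues, on arrays that were not on a common scale: over all probe sets the median of control root minus control leaf was 1.08, and the lowest signals were 3.99 to 4.10 on the root and 2.49 to 2.65 on the leaf arrays. At this scale 5 members were higher in root, where 66.5% of all probe sets were, and 1 was lower, where 10.3% were. Differences are therefore given after quantile normalization over the 8 arrays, where the median was 0.08. BTub4 was then higher in root by 1.94 (SE 0.18, limma adjusted p = 0.00018), TUA10-a by 2.05 (SE 0.22, limma adjusted p = 0.00036) and TubA2 by 1.80 (SE 0.17, limma adjusted p = 0.0002). All 3 passed in the same direction with the deposited values and with each array centred on its median.

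TUA10-b, assigned to the same gene as TUA10-a, was lower in root than in leaf. Both control leaf arrays (7.89 and 6.89) lay above the reporter level of their group (5.60), and both control root arrays (5.28 and 6.02) under that of theirs (6.43). The difference passed after quantile normalization (limma adjusted p = 0.0013) and, in the same direction, under the other 2 scalings, but its size is not fixed, because the root signal was not above the reporter level. Over the 8 median-centred arrays the 2 probe sets had a Pearson r of -0.49, whereas TUA10-a and TubA2, of different genes, had 0.96. These correlations are descriptions over arrays that share tissue and flooding. Which sequence gives the leaf signal of TUA10-b was not tested. BTub3 (0.12, limma adjusted p = 0.7) and the dim TUA10-c (-0.66, limma adjusted p = 0.14) did not pass, ATub3 passed after quantile normalization (0.89, limma adjusted p = 0.045) and changed sign with median centring (-0.16, adjusted p = 0.62), and ACT1 was higher in root by 1.03 after quantile normalization (limma adjusted p = 0.0023) and by 0.17 with median centring (adjusted p = 0.44).

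**Figure D5:**
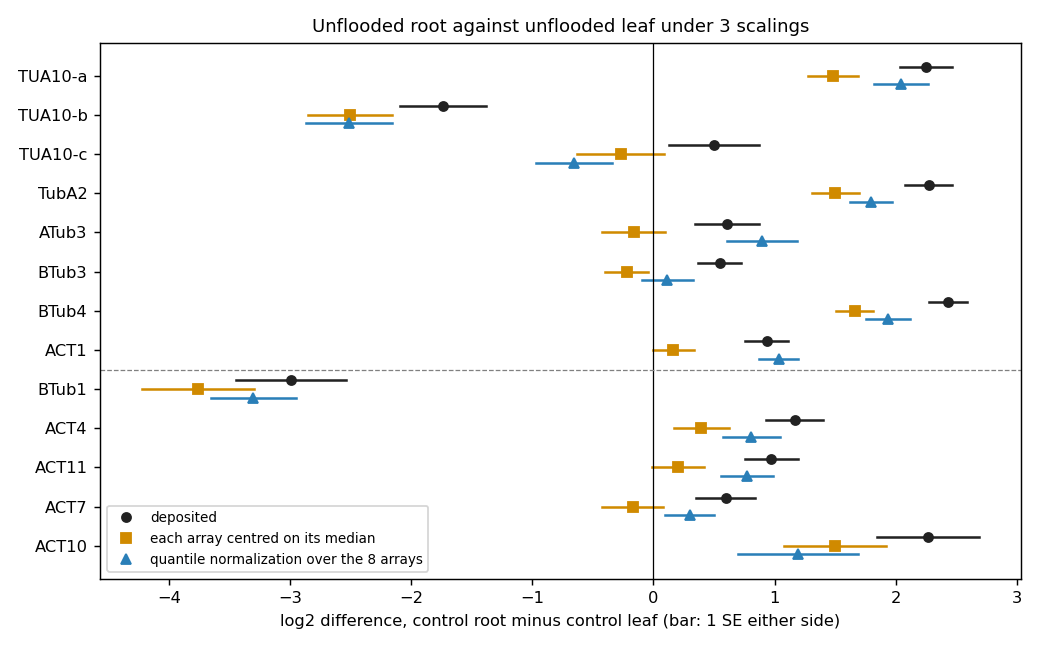
Log2 difference, control root minus control leaf, with 1 SE either side (x axis) for the 8 members and, under the dashed line, 5 other tubulin and actin genes, with the deposited values, each array centred on its median, and quantile normalization over the 8 arrays. TUA10-a, TubA2 and BTub4 lie above 0 and TUA10-b and BTub1 under 0 with each scaling, while TUA10-c, ATub3, BTub3 and ACT7 change sign.

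The 5 other genes of these families showed no fall or rise that passed. BTub1 (LOC107962977, also listed as BTub2) was the beta tubulin with the opposite tissue pattern, at 11.55 and 11.92 in control leaf and 9.47 and 8.02 in control root (root minus leaf after quantile normalization -3.30, limma adjusted p = 0.00032). Its flooding changes were -0.71 in root (limma adjusted p = 0.44) and 0.33 in leaf (limma adjusted p = 0.8), and the 2 control root arrays lay far apart. In root the actins ACT4 (-0.75, limma adjusted p = 0.097), ACT11 (-0.78, limma adjusted p = 0.067), ACT7 (-0.34, limma adjusted p = 0.49) and ACT10 (-0.74, limma adjusted p = 0.38) had negative log2 changes like that of ACT1. In leaf they stood between -0.27 and 0.22, with ACT1 at -0.65. ACT10, next to ACT1 in the genome but for 1 gene, read 3.36 to 6.36 and lay under the reporter level of its group in each mean.

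Other genes linked to the cytoskeleton were taken from a list of actin and microtubule partners, which matched 13 probe sets including the 5 above. In root 1 of 13 fell and 0 rose, beside 4.28% and 6.4% of all probe sets. Rac2 (also listed as Rac6 and RacA), a small GTPase of the family that steers actin and microtubule arrays in plants, read 10.21 and 9.79 in control and 8.72 and 8.62 in flooded root (log2 change -1.33, limma adjusted p = 0.0087). In leaf 1 of 13 fell and 0 rose, beside 3.05% and 2.21% of all probe sets. AnnGh1, an annexin, a calcium-dependent membrane-binding protein, read 11.97 and 11.92 in control and 9.77 and 10.59 in flooded leaf (-1.77, limma adjusted p = 0.0155). By the test of the difference between tissues, the flooding change of AnnGh1 was higher in root than in leaf (1.82, limma adjusted p = 0.029), and that of Rac2 lower (-1.82, limma adjusted p = 0.015). Rac9 also passed as lower (limma adjusted p = 0.043), but its means in control leaf and flooded root were under the reporter level, so no size is given. The median change of the list was -0.40 in root and 0.18 in leaf, against -0.02 and -0.04 over all probe sets. The microtubule-severing katanin GhKTN1 did not pass in either tissue (-0.37 in root, limma adjusted p = 0.62, and 1.28 in leaf, limma adjusted p = 0.083). Nor did the kinesins KCH1 (-0.16 and -0.12, limma adjusted p = 0.7 and 0.81) and kch2 (-0.27 and 0.01, limma adjusted p = 0.43 and 0.99). KCH1 and kch2 lay under the reporter level in all 4 groups, and GhKTN1 in both root means, so a change there could have been missed. For cellulose synthesis only CelA1, a cellulose synthase, had a name. In root 1 of its 2 probe sets fell (-1.60, limma adjusted p = 0.033) and 0 rose, beside 4.28% and 6.4% of all probe sets. In leaf 0 moved, where 3.05% of all probe sets fell and 2.21% rose. The probe set that did not pass in root lay under the reporter level in all 4 groups, so its change could have been missed. The histones HIS2B and HIS3 did not pass in root or leaf in limma. In leaf 1 of them was higher at an unadjusted p under 0.05, a limit at which the share of all probe sets was not computed.

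The elongation factor genes EF1A, which like actin serve as references in plant work, were read by 4 probe sets of 3 genes. In root 1 of 4 fell, where 4.28% of all probe sets did. It was a probe set of EF1A7 (-0.78, limma adjusted p = 0.021), and the other probe set of that gene did not pass (-0.52, limma adjusted p = 0.45). In leaf 4 of 4 fell, between -1.92 and -0.83, where 3.05% of all probe sets did. Of a list of 22 probe sets of fibre and vascular wall genes, 10 fell in root and 0 rose, beside 4.28% and 6.4% of all probe sets. Among those that fell were E6 (-2.37) and H6L (-2.20). The 12 that did not pass ranged from -2.20 for 1 probe set of FLA to 0.18 for 1 of FLA14. They included FLA4 (-1.26), FLA7 (-0.89), Fb2 (-0.11), FLA16 (-0.22) and 3 probe sets of FLA14 (0.036 to 0.18). In root FLA16, FLA18, FLA2, 1 probe set of fla-12 and 1 of FLA14 lay under the reporter level. Fb2 and another probe set of FLA14 lay near it. A fall of these could have been missed. The remaining probe set of FLA14 was bright, at 11.51 to 11.79. The summed linear signal of the 22 was 22150 to 25800 in control and 9024 to 10850 in flooded root. In leaf 4 fell and 1, H6L, rose, beside 3.05% and 2.21%, with sums of 5841 to 8493 in control and 3901 to 4525 in flooded leaf. E6 stood above the reporter level in root, at 10.91 to 11.41 in control and 8.48 to 9.10 in flooded root. The part that a change in cell make-up had in the tubulin falls was not tested.

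Among 316 other probe sets with a gene name, those whose profile over the 8 median-centred arrays was most like the mean of the 7 tubulin probe sets were GHMYB36 (Pearson r = 0.95), a MYB transcription factor, ACT11 (0.92), fla-12 (0.86), from a family of wall-bound arabinogalactan proteins, ACT4 (0.85) and SMT2-1 (0.84), a sterol methyltransferase. Nearest to ACT1 were EF1A7 (0.94), 2 probe sets of FLA (0.93 and 0.90), ANT1 (0.91) and FLA4 (0.89). Of the 5 nearest to the tubulins, 3 fell in root (GHMYB36, fla-12 and SMT2-1) and 1 in leaf (fla-12), beside 4.28% and 3.05% of all probe sets. They were chosen by likeness to a profile over these same arrays, which holds the root falls, so these calls are no separate evidence. The likeness is a description over arrays that differ mainly by tissue, and carries no test.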

How the data were processed

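The deposited table holds log2 signals for 24132 probe sets with 1 column for each of the 8 arrays; 0 columns belonged to no sample. The submitters' processing notes name RMA and limma, with neither versions nor roles. RMA is a method that subtracts background, makes arrays alike in distribution and combines the probes of a set, and it shrinks differences between weak signals. Detection calls were not used.

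The members and gene lists were chosen with earlier results of these data known. Lists were matched by the start of gene symbols; mitogen-activated kinases, which match the prefix MAP, were left out, and HIS2B and HIS3 were added after the names were seen. Named were all members, the called genes of each list (at most 5 a contrast, by smallest p) and the 5 nearest profiles. The other genes given by name were chosen after their values were seen.

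Signals were used as deposited, without filter or pseudocount, after 103 control probe sets were removed. The model in limma 3.58.1 (R 4.3.3) had a mean for each of the 4 groups; its residual degrees of freedom were 4 and its prior degrees of freedom 3.48. Benjamini-Hochberg adjustment ran over all 24029 probe sets, with calls at 0.05. Counts at an unadjusted p under 0.05 have no share of all probe sets to be set against, because none was computed. For values relative to ACT1, its signal was subtracted on each array before the fit (prior degrees of freedom 5.33). The fit was tested on simulated data in which all groups had the same spread. That test therefore cannot show how the larger spread of control root affects the calls. The labels call the 2 arrays of a group biological replicates, but do not say how many plants each one represents. Gene names came from the probe table through gene identifiers (697 probe sets with 1 gene, 324 with a name). Another 2 probe sets that list several genes, among them a tubulin or actin gene, were not named. Other settings changed the prior variance, the weights of arrays, the normalization, the filter, the size limit of a call or the arrays fitted, or added the replicate number as a block. Same-numbered arrays deviated together with r = 0.037 in root and -0.19 in leaf, so the numbers were not taken as pairs.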

Additional observations from a re-analysis of the deposited data

Results flagged for a closer look

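The flooding change of BTub3 differed between root at 4 h and leaf at 24 h by the test of the difference itself (root minus leaf -1.05 on the log2 scale, limma adjusted p = 0.046). It was -1.52 in root and -0.47 in leaf. The call was kept in only 3 of 9 other settings (limma adjusted p = 0.038 to 0.11). Without 1 array the difference ran from -1.20 to -0.90.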

How the results depend on the processing

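The falls of TUA10-a, TubA2 and BTub3 in root passed in all 10 other settings and in all 8 fits without 1 array, and 3 to 4 members were called lower in root without 1 array. Over all settings 692 member results kept direction and call, 58 lost the call, 27 gained one and 29 changed sign. The low-value filter left out 1 member, TUA10-c. In leaf, members called lower numbered 2 with array weights and with quantile normalization within each tissue, and 0 to 2 without 1 array: 2 where the array left out was a control root array, 0 otherwise. For root minus leaf, the count was 2 with quantile normalization over 8 arrays and with median centring, 0 with the intensity trend, array weights, quantile normalization within each tissue and the filter (limma, 3 to 4 at unadjusted p), and 0 to 2 without 1 array. Members higher in control root numbered 3 with median centring and with a 2-fold limit. Relative to ACT1, members lower in root numbered 1 with each tissue alone and with a 2-fold limit, and 0 to 3 without 1 array. Members higher in leaf relative to ACT1 numbered 2 with array weights, both quantile normalizations and each tissue alone, 0 with the mean of 4 actin probe sets, and 0 to 2 without 1 array.

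With the replicate number as a block, 3 members were called lower in root (BTub4 was not, adjusted p = 0.12), 0 in leaf (3 at unadjusted p), 0 for root minus leaf (4 at unadjusted p), and 2 were higher in leaf relative to ACT1. Same-numbered arrays did not deviate together in a way that shows pairing (r = 0.037 in root, -0.19 in leaf).

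Sign changes were as follows. With quantile normalization over 8 arrays, root minus leaf became -0.41 for ATub3 and -0.19 for ACT1, control root minus leaf -0.66 for TUA10-c, and relative to ACT1, root was 0.15 for TUA10-b and 0.021 for BTub4, and leaf -0.0073 for TubA2. With median centring, root minus leaf was -0.023 for ATub3, and control root minus leaf -0.27 for TUA10-c, -0.16 for ATub3 and -0.22 for BTub3. Quantile normalization within each tissue gave 0.12 for TUA10-b in root relative to ACT1. With the mean of 4 actin probe sets, TUA10-b was 0.034 in root, and in leaf TUA10-a was -0.18, TubA2 -0.31 and BTub3 -0.22. Without 1 array, TUA10-c ran from -0.25 to 0.84 in leaf, from -0.046 to 1.04 for control root minus leaf and from -0.37 to 0.39 in root relative to ACT1. Root minus leaf ran from -0.26 to 0.31 for ATub3 and from -0.037 to 0.19 for ACT1. Relative to ACT1, root ran from -0.47 to 0.46 for TUA10-b and from -0.23 to 0.027 for BTub4, and leaf from -0.0015 to 0.45 for TUA10-a and from -0.046 to 0.22 for TubA2. The cause of these changes was not tested. Signals near the reporter level (TUA10-b in root, TUA10-c) limit what can be read from them.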
